A study of Homo sapiens with 18 samples.

Results

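The 7 APOBEC3 genes lie side by side on the plus strand of chromosome 22, and the DRIP–seq and A3B-eGFP ChIP–seq regions called at them are described here. A region was assigned to a gene when its midpoint lay in the GENCODE span of the gene on hg38 or within 2 kb of its start. By this rule 102 of 774635 regions in 9 deposited lists belonged to an APOBEC3 gene, 88 of 757528 in the 6 DRIP–seq lists and 14 of 17107 in the 3 ChIP–seq lists. No region belonged to more than 1 APOBEC3 gene. From left to right the spans are chr22:38952741-38963184 for APOBEC3A, chr22:38982347-38992804 for APOBEC3B, chr22:39014257-39020352 for APOBEC3C, chr22:39021113-39033277 for APOBEC3D, chr22:39040604-39055972 for APOBEC3F, chr22:39077067-39087743 for APOBEC3G and chr22:39097224-39104067 for APOBEC3H.

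DRIP–seq recovers DNA fragments that hold RNA/DNA hybrids with the S9.6 antibody, and was done in MCF10A, a nontumorigenic breast epithelial line, and in a derivative that lacks APOBEC3B (A3B KO). WT and A3B KO cells received either DMSO or the protein kinase C activator PMA, at 25 ng/ml, and were taken 2 h or 6 h into PMA treatment. The A3B KO line is 1 clone, made with a guide RNA that matches both APOBEC3A and APOBEC3B, so that the DNA between the cuts is lost and an APOBEC3A/B fusion is left. ChIP–seq was done against eGFP in MCF10A cells that carry an added, doxycycline-inducible A3B-eGFP transgene beside their own APOBEC3B gene, without doxycycline and with DMSO (Dox- DMSO), with doxycycline at 1 µg/ml for 24 h and DMSO (Dox+ DMSO), or with doxycycline and PMA for 2 h (Dox+ PMA 2 h). The DRIP–seq cells do not carry this transgene. Each condition was 1 library, so no difference between conditions has an error or a test. Sequencing depth is not known from these lists; summits had a median pileup of 20 to 30 fragments in DRIP–seq and of 25 to 35 in ChIP–seq, and a place with no region may fall under the calling threshold rather than lack hybrids.

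APOBEC3 proteins are deaminases that turn cytosine into uracil in single-stranded DNA, and the family is best known for restricting retroviruses and mobile elements. APOBEC3A, APOBEC3C and APOBEC3H have a single deaminase domain, and APOBEC3B, APOBEC3D, APOBEC3F and APOBEC3G have a pair of them. APOBEC3B is the member that stays in the nucleus, and PMA induces its transcription in epithelial cells through protein kinase C and NF-κB. An R-loop forms where a transcript pairs with its template and leaves the other DNA strand single, and a nontemplate strand rich in G favours it.

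Of the 7 places of the cluster called in all 6 DRIP–seq lists, 2 that differ in base content are shown by sequence, and the choice was made with these data known. Each is 300 bases of hg38 on the plus strand, which is the coding strand of all 7 genes, centred on the stretch that the 6 lists shared, and neither lies in an annotated UTR. The shared stretch was 186 bp at APOBEC3A and 103 bp at APOBEC3D, so the bases shown and counted run past it on both sides. Capitals mark runs of at least 3 G. The APOBEC3A sequence is from intron 1 at chr22:38958295-38958594, and the other, counted for APOBEC3D, is from between the end of APOBEC3C and the start of APOBEC3D at chr22:39020595-39020894.
APOBEC3A intron 1: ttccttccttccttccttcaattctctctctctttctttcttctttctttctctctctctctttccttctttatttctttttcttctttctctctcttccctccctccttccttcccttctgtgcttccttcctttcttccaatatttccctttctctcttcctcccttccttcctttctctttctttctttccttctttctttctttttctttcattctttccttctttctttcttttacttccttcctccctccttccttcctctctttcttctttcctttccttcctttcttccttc
APOBEC3C to APOBEC3D: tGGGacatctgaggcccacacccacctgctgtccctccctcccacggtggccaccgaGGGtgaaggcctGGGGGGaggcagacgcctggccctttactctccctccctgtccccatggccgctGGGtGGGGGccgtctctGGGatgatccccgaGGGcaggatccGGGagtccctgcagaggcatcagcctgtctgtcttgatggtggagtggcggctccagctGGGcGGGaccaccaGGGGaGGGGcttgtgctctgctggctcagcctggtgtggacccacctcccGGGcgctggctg

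These sequences differed in base content. The APOBEC3D sequence had 69.3% G and C and 13 runs of G, and 1.84% of the middle 300 bases of all DRIP–seq regions had as many runs on the plus strand, with a median of 3. The APOBEC3A sequence held no such run, and 290 of its 300 bases were C or T. Taking for each region the larger of its C and T share and its A and G share, 0.189% of all DRIP–seq regions were as one-sided, and the median was 57.7%.

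Matches to the AP-1 motif TGANTCA and to the NF-κB consensus were counted on both strands. Over the whole cluster, 20 of the 88 DRIP–seq regions of APOBEC3 genes held an NF-κB match and 4 an AP-1 match, against 8.35% and 11.4% of all DRIP–seq regions. Overlapping regions share these matches, which came from 10 and 5 places in the genome. A match describes letters and not a bound site.

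The A3B KO genotype was checked first, since a region cannot be called where the DNA is missing. The longest exact match between the ends of APOBEC3A and APOBEC3B ran over 350 bases, from 38962276 to 38962625 in APOBEC3A and from 38992212 to 38992561 in APOBEC3B, and the 29586 bp between these copies were taken as the deleted interval; the cut sites themselves were not known here. WT cells had 4, 5 and 10 DRIP–seq regions in it with DMSO, PMA 2 h and PMA 6 h. A3B KO cells had 0 in all 3 lists, and their nearest regions lay at or before 38958817 and at or after 39000186. The gap was 41371 to 41524 bp. The absence of APOBEC3B regions in A3B KO is therefore no reading of R-loops, and in A3B KO lists the members below are counted out of 6. These include APOBEC3A, which in A3B KO is part of the APOBEC3A/B fusion.

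DRIP–seq regions were found at each of the 7 genes in at least 1 list, but at very different rates. APOBEC3A, APOBEC3C, APOBEC3D and APOBEC3F had a region in all 6 lists, APOBEC3H in 3, APOBEC3B in 2 of the 3 WT lists and APOBEC3G in 1. By list, 4 of 7 members had a region in WT DMSO, 5 in WT PMA 2 h and 7 in WT PMA 6 h, against 70.1%, 70.8% and 77.6% of all 19970 protein-coding genes. In A3B KO it was 4 of 6, 5 of 6 and 5 of 6, against 71.9%, 73.5% and 77.2%. The WT counts moved with the settings: in lists of equal length they were 4, 5 and 4, and by an overlap of at least 1 bp WT DMSO had 6.

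The APOBEC3 genes are short, with a median of 10458 bp against 27476 bp for protein-coding genes, and per length their regions were denser than those of all genes pooled. With the APOBEC3B window counted in A3B KO too, they held 1.16 to 1.98 regions per 10 kb of window in the 6 lists, and all protein-coding genes together held 0.457 to 0.757, a ratio of 2.45 to 3.88. The value of all genes is their summed regions over their summed window length, so long genes weigh most in it. Genes of like length were not compared, and the part of gene length in the ratio was not tested. The density differed between members. Over the 6 lists the mean per 10 kb was 4.12 at APOBEC3C, 3.55 at APOBEC3F, 1.65 at APOBEC3D and 1.21 at APOBEC3A. It was 0.754 at APOBEC3H and 0.131 at APOBEC3G, and over the WT lists alone 0.803 at APOBEC3B. In each list the median of the highest summits of the APOBEC3 genes was lower than that of all genes. The median percentile of the highest summit over members with a region, that is, the percent of regions of the list at or under its fold enrichment, was 42.0, 57.5 and 47.9 in WT and 58.4, 62.7 and 72.4 in A3B KO, in the order DMSO, PMA 2 h and PMA 6 h. Over all genes with a region the medians were 80.5 to 84.1, and APOBEC3D in WT DMSO and A3B KO PMA 2 h and APOBEC3H in its 3 lists stood above them. In the WT lists and in A3B KO PMA 6 h all genes also held more regions each, with a median of 2 or 3 against 1 for the members. In A3B KO DMSO and A3B KO PMA 2 h both medians were 2. The member medians of A3B KO count the deleted APOBEC3B as a gene with no region. The part of region number in the gap between the percentiles was not tested. Of the 88 regions, 57 had their midpoint in an intron of the canonical transcript, 18 in a UTR, 4 in a coding exon and 9 upstream of it.

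**Figure D1:**
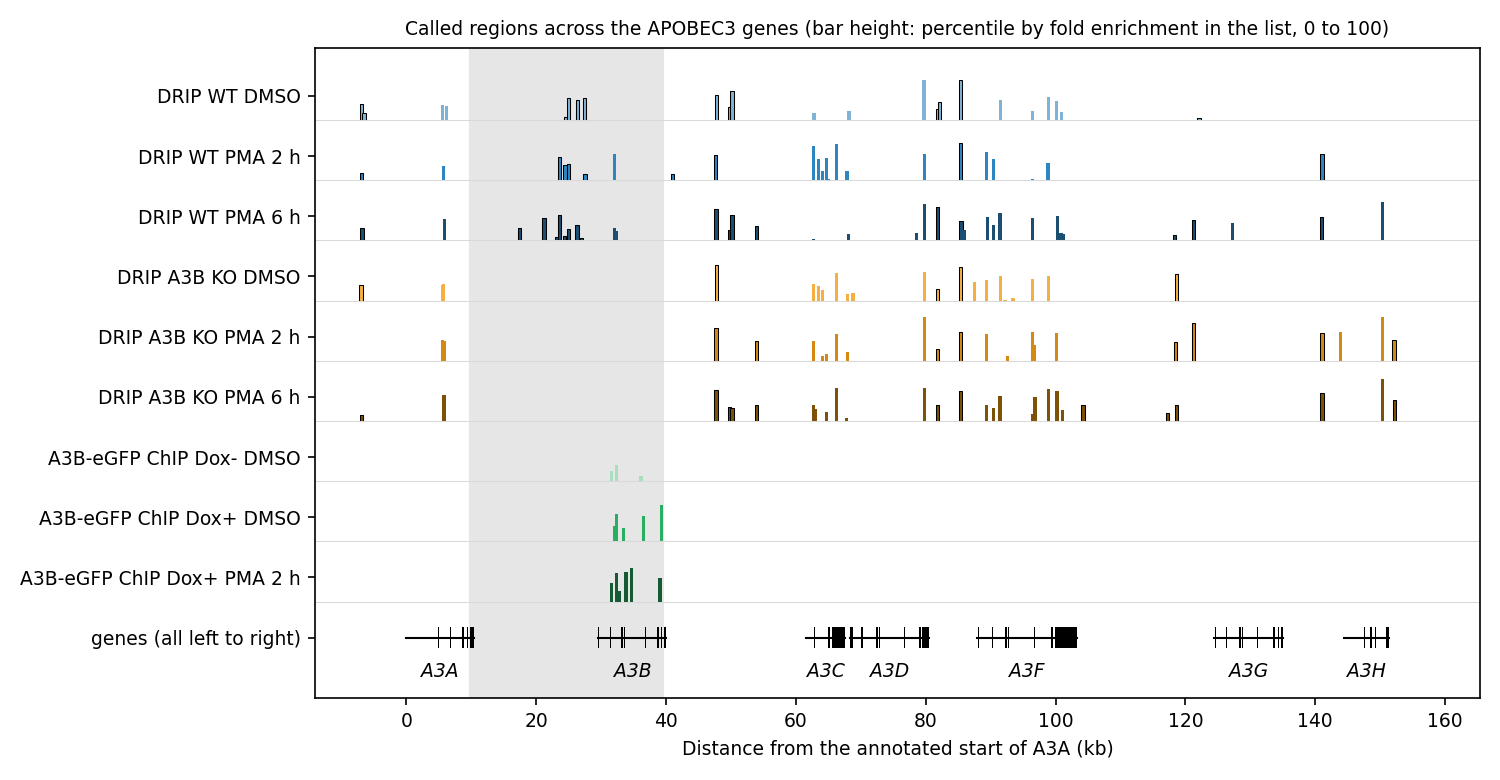
Called regions (bars of 0.5 kb, drawn for 9 lists in rows) along the APOBEC3 cluster, by distance from the annotated start of APOBEC3A in kb. Bar height is the percentile of the region's fold enrichment in its own list from 0 to 100, black outlines are regions that belong to no APOBEC3 gene, black boxes are exons (gene labels drop the letters APOBEC), and the grey band is the interval deleted in A3B KO, where the 3 A3B KO lists hold 0 regions and the ChIP–seq regions all lie at APOBEC3B.

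APOBEC3B, the nuclear member that PMA induces, had no DRIP–seq region in WT DMSO. In WT PMA 2 h it had 1, at 38984522 to 38985022 in intron 2, with a pileup of 28 fragments and a fold enrichment of 5.05 (percentile 57.5). In WT PMA 6 h it had 2 in the same intron, with pileups of 24 and 23 and fold enrichments of 3.95 and 3.68 (percentiles 26.7 and 21.7). APOBEC3B was the only member with a region in WT PMA 2 h and none in WT DMSO, which held for 7.51% of all protein-coding genes. The absence in WT DMSO rests on the limit of the rule. A region at 38979906 to 38980406 in WT DMSO reached into the 2 kb before APOBEC3B with its midpoint outside, and so did one at 38980038 to 38980538 in WT PMA 2 h. Within 10 kb before APOBEC3B, overlapping regions of the WT lists merged into 5 places, called in 1 to 3 of these lists, with highest fold enrichments per list of 2.82 to 5.59.

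The ChIP–seq regions of the cluster lay only at APOBEC3B. There were 3 in Dox- DMSO, 5 in Dox+ DMSO and 6 in Dox+ PMA 2 h, and none at the other 6 genes or within 10 kb of the cluster. Not all were separate peaks. In Dox- DMSO 2 were summits of 1 peak, and in Dox+ DMSO 3 were. In Dox+ PMA 2 h 3 were summits of 1 peak and 2 of another. A region was found for 1.64%, 9.67% and 7.81% of all protein-coding genes in these lists, and in all 3 lists for 0.676% of them, or 135 of 19970 genes, of which APOBEC3B was 1. Relative to all genes pooled, APOBEC3 regions per 10 kb were 24.9, 20.2 and 19.7 times as dense, all of it from APOBEC3B.

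The list without doxycycline, in which the transgene was not induced, is the background for the antibody and held 3 regions at APOBEC3B. The regions there had fold enrichments of 3.32, 3.68 and 2.89. The 5 regions with doxycycline had fold enrichments of 2.68 to 4.23, highest at exon 7, and the 6 with doxycycline and PMA had 2.54 to 4.01, highest in intron 4. Within their lists these highest summits stood at percentiles 34.7, 81.0 and 74.4, against medians of 39.3, 32.6 and 35.7 over all genes with a region. By percentile of the pileup the same summits stood at 65.3, 30.4 and 48.8, and by that of −log10 q at 54.7, 63.0 and 71.3. The order of the lists thus depended on the measure. The summits also lay at different places, in intron 2, at exon 7 and in intron 4.

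The added transgene holds APOBEC3B coding sequence, so the exon content of the regions was read. The most significant region of each list lay in intron 2 and held 0 exonic bases, at starts 38984871, 38984875 and 38984924, with pileups of 32, 46 and 42 fragments and −log10 q of 7.49, 9.83 and 9.44. Over the 14 regions exonic bases ran from 0 to 294 of 500. Both WT PMA lists had a DRIP–seq region that overlapped this intron 2 place. Of the ChIP–seq regions, 2 of 3, 2 of 5 and 2 of 6 overlapped a region of WT PMA 2 h by at least 1 bp, 2 of 3, 2 of 5 and 3 of 6 one of WT PMA 6 h, and none one of WT DMSO. Over all regions of the 3 ChIP–seq lists, 37.6%, 40.5% and 42.7% overlapped a WT PMA 2 h region, 51.4%, 48.2% and 41.8% a WT PMA 6 h region, and 37.0%, 43.7% and 35.6% a WT DMSO region.

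APOBEC3A, a deaminase of myeloid cells and of interferon-treated cells, had the same place in all 6 lists, at chr22:38958037-38959159 in intron 1 of its canonical transcript. The highest fold enrichments there were 3.70, 3.90 and 5.08 in WT with DMSO, PMA 2 h and PMA 6 h, and 3.85, 4.80 and 5.06 in A3B KO. As percentiles these were 32.1, 32.1 and 47.9 in WT and 37.7, 46.7 and 57.5 in A3B KO. PMA 6 h was highest in both lines, and A3B KO stood above WT after PMA by percentile, but not by fold enrichment at PMA 6 h. In A3B KO this place belongs to the APOBEC3A/B fusion, so genes of different structure were compared. The part of this in the difference was not tested. With DMSO the order depended on the measure, since by percentile of the pileup APOBEC3A was at 51.1 in WT and 41.6 in A3B KO, and by that of −log10 q at 38.8 and 37.6. The 9 regions were poor in G and C, with a median of 40% against 45.6% over all DRIP–seq regions, and 0 of 9 had more G than C on the coding strand.

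APOBEC3C, a broadly expressed member with weak deaminase activity, varied widely between lists. It had 1, 6 and 1 regions in WT with DMSO, PMA 2 h and PMA 6 h, and 4 in each A3B KO list. In lists of equal length these became 1, 5 and 0 in WT and 4, 2 and 1 in A3B KO. In WT PMA 2 h, 5 of the 6 were summits of 1 broad peak that ran from intron 1 through intron 2. Its highest summits had fold enrichments of 3.11, 6.45 and 2.69 in WT and 4.80, 5.45 and 6.11 in A3B KO (percentiles 15.0, 79.8 and 3.69, and 61.6, 58.6 and 73.6). A place in the last exon, at chr22:39018727-39019236, was called in WT PMA 2 h and in all 3 A3B KO lists, and in neither WT DMSO nor WT PMA 6 h. By this place and by the percentile of the highest summit, the WT lists with DMSO and with PMA 6 h stood apart from the other 4. By region counts in lists of equal length they did not, since A3B KO PMA 6 h had 1, as WT DMSO had. Of the 20 APOBEC3C regions, 17 had more G than C on the coding strand, against 49.5% of all DRIP–seq regions on the plus strand. Regions of different lists overlap here, so the same bases were counted more than once. Over all APOBEC3 genes it was 53 of 88, with 0 of 9 at APOBEC3A, 7 of 14 at APOBEC3D and 4 of 4 at APOBEC3H.

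APOBEC3D had regions at both of its ends in all 6 lists. The upstream place, at chr22:39020296-39021193, ran from the last bases of APOBEC3C to just past the start of APOBEC3D and was low in each list, with fold enrichments of 3.32, 3.44 and 3.31 in WT and 3.10, 3.59 and 2.69 in A3B KO (percentiles 6.82 to 20.8). It is rich in both G and C, with 108 G and 100 C in the 300 bases shown above. In its WT DMSO region 50.2% of the 100-base stretches recurred elsewhere in the cluster. The place at the other end, at chr22:39032226-39032857 in the last exon, held the highest APOBEC3D summit of each list. Its fold enrichments were 6.79, 5.04 and 7.56 in WT and 4.82, 10.5 and 6.05 in A3B KO. With PMA 2 h the percentile went from 88.7 to 57.3 in WT and from 63.3 to 97.3 in A3B KO.

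APOBEC3F had the most regions, 37 in all, with 5, 4 and 8 in WT and 7, 5 and 8 in A3B KO. They were spread over the gene, and the highest summit was in intron 5, intron 1 and intron 2 in WT and in intron 2, intron 4 and intron 5 in A3B KO. The level of that summit lay at percentiles of 51.9, 63.3 and 61.7 in WT and 55.2, 62.7 and 71.4 in A3B KO. A place at chr22:39048890-39049842 from intron 4 to intron 5 was called in all 6 lists. Another, at chr22:39041826-39042451 in intron 1, was called in all lists except WT DMSO, with fold enrichments of 5.37 and 5.31 in WT after PMA and of 4.08, 5.42 and 3.97 in A3B KO. A place found in all 6 lists at chr22:39037808-39038870, with fold enrichments of 4.76 to 6.75, lay at the limit of the rule of 2 kb, so that a second, lower summit of WT PMA 6 h counted for APOBEC3F and the others did not.

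APOBEC3G, the member that blocks HIV-1 lacking Vif, had 1 region in the 6 lists, in WT PMA 6 h in intron 2 at 39079770 to 39080270, with a pileup of 30 and a fold enrichment of 4.62 (percentile 39.0). No other list had one by the rule, although a region at 39074579 to 39075079 in WT DMSO, with a fold enrichment of 2.71, reached into the 2 kb before the gene with its midpoint outside. APOBEC3G is mainly a gene of T cells and macrophages. Of 6 lymphoid marker genes, 2, 2 and 5 had a region in WT and 0, 2 and 4 in A3B KO, and of 8 basal breast epithelial markers all 8 had one in each list except A3B KO PMA 6 h, with 7. Of 6 luminal markers 4 or 5 had one in each list.

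APOBEC3H had no region in either DMSO list or in WT PMA 2 h. Its place in intron 4, at chr22:39102857-39103391, had fold enrichments of 8.13 in WT PMA 6 h, 9.87 in A3B KO PMA 2 h and 8.28 in A3B KO PMA 6 h, with pileups of 42, 38 and 58 fragments. These were the highest APOBEC3H summits and stood at percentiles 84.8, 96.2 and 92.3. A further APOBEC3H region, 608 bp before the annotated start, was found in A3B KO PMA 2 h with a fold enrichment of 5.78. A place with its midpoint 818 bp past the end of the gene was found in A3B KO after PMA, with fold enrichments of 4.77 and 4.47. Between APOBEC3G and APOBEC3H, a place at chr22:39093489-39094017 was called in all 4 PMA lists, with fold enrichments of 5.10 to 5.61, and in neither DMSO list. Of the merged places of the genome 5736 of 250966 had that pattern, and of the 36 of the cluster outside the deleted interval it was this 1, or 2.78%.

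Genes with a region after PMA and none with DMSO were counted in each line. In WT they were 1 of 7 at 2 h (APOBEC3B) and 3 of 7 at 6 h (APOBEC3B, APOBEC3G and APOBEC3H), against 7.51% and 11.0% of all protein-coding genes. In A3B KO they were 1 of 6 at 2 h and 1 of 6 at 6 h, APOBEC3H both times, against 7.21% and 8.70%. The PMA 6 h lists were the longest, with 165877 regions in WT and 169126 in A3B KO against 91894 and 98432 with DMSO, and cut to the length of the shortest list WT PMA 6 h had a region at 4 of 7 members, without APOBEC3B, APOBEC3C and APOBEC3G.

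APOBEC3 regions outside the deleted interval were compared between the lines. Of the WT regions, 8 of 10, 10 of 13 and 13 of 15 overlapped an A3B KO region of the same treatment by at least 1 bp, against 59.4%, 63.5% and 67.9% of all WT regions. Of the A3B KO regions, 8 of 16, 11 of 15 and 13 of 16 overlapped a WT region, against 55.7%, 58.7% and 64.3%. The A3B KO regions that WT lacked with DMSO included 3 of the 4 at APOBEC3C. In the cluster with 10 kb on each side, 7 of the 36 merged places outside the deleted interval were called in all 6 lists (19.4%, against 11.6% of all places), and 10 in 1 list alone (27.8%, against 38.4%).

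**Figure D2:**
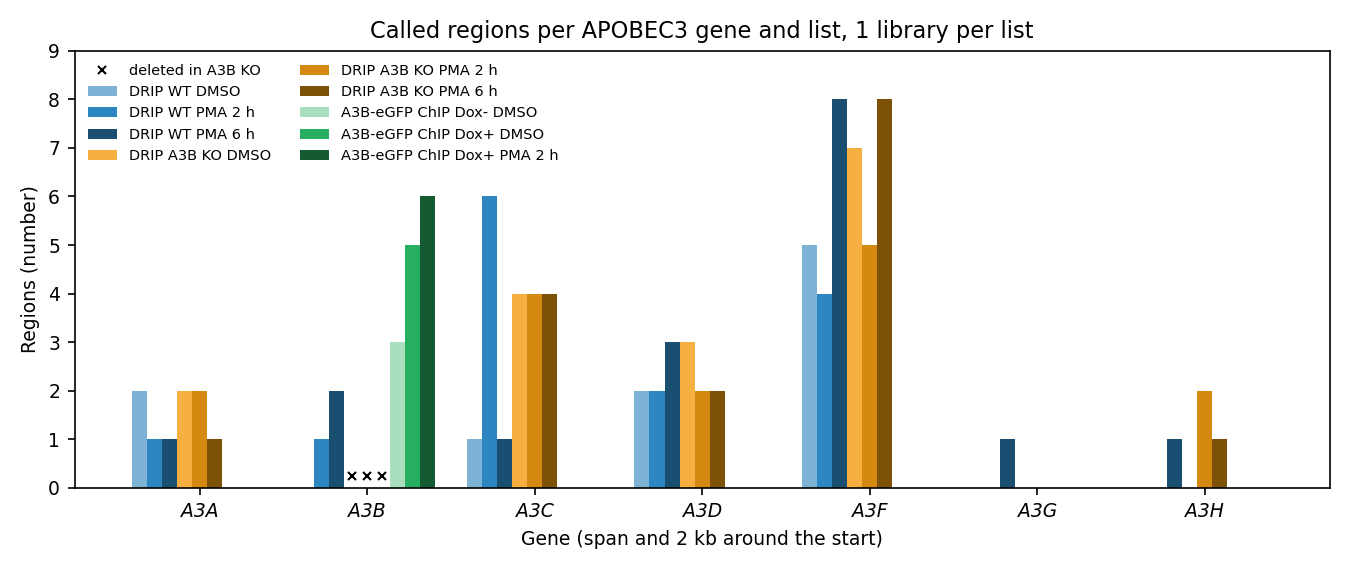
Number of called regions (vertical axis, from 0) at each APOBEC3 gene in each of the 9 lists, 1 library per bar. APOBEC3F had 4 to 8 DRIP–seq regions in every list, APOBEC3C had 6 in WT PMA 2 h and 1 in the other WT lists, ChIP–seq regions were counted at APOBEC3B alone, and crosses mark APOBEC3B in A3B KO, where the DNA is deleted.

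Genes related by place or function were read in the same lists. Of the 10 protein-coding neighbours within 250 kb, 6 to 9 had a DRIP–seq region in each list, and RPL3, a ribosomal protein gene of 7508 bp, had 8 to 10 regions in every list. ENSG00000284554, counted among them, spans APOBEC3C and APOBEC3D and holds the same regions. None had a ChIP–seq region in Dox- DMSO or Dox+ DMSO, and GTPBP1 and SUN2 had 4 and 1 in Dox+ PMA 2 h. Of the related genes elsewhere in the genome, APOBEC1 had 1 to 5 regions in all 6 DRIP–seq lists, APOBEC2 had 1 in WT PMA 2 h alone and APOBEC4 had none. None of these had a ChIP–seq region, nor had any of the 6 uracil repair genes, of which 5 or 6 had a DRIP–seq region in each list.

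Of 9 genes on the route from protein kinase C to NF-κB, 7, 9 and 9 had a region in WT and 6, 8 and 9 in A3B KO with DMSO, PMA 2 h and PMA 6 h. PRKCA, a kinase gene of 508131 bp, had the most, with 20 to 41. RELB, the NF-κB subunit of the noncanonical route, had 4, 10 and 7 regions in WT and 3, 13 and 8 in A3B KO. NFKB2, its partner, had 0, 2 and 1 in WT and 0, 5 and 4 in A3B KO. Other genes of the route did otherwise: PRKCA had the most regions with PMA 6 h in both lines, and MAP3K14, the kinase of the noncanonical route, had 14, 9 and 11 in WT and 14, 10 and 10 in A3B KO. By the percentile of its highest summit RELB was highest with PMA 2 h in WT, at 98.2, and lowest with PMA 2 h in A3B KO, at 77.6. No list had a region at CDKN2A or CDKN2B, genes that MCF10A cells lack.

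For the 4 members with a region in at least 4 DRIP–seq lists, the protein-coding genes with the most like percentiles over the 6 lists were found by Euclidean distance. For APOBEC3D these were TMEM182, IGLON5 and THAP5, at distances of 10.8 to 11.7 percentile points. For APOBEC3F they were EMC7, ZC3H13 and CEP89 (13.0 to 14.5), for APOBEC3C TMEM107, PSMB9 and C16orf92 (16.5 to 20.5), and for APOBEC3A GATA5, PPP1R14A and ZNF800 (19.2 to 22.2). A list with no region counted as percentile 0. This held for TMEM107 in WT PMA 6 h and for C16orf92 in WT DMSO and WT PMA 6 h.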

How the data were processed

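Regions were taken from 9 lists deposited for 18 libraries, each immunoprecipitation set against its own input, with pooled immunoprecipitations and 1 library per condition. The authors trimmed reads of 150 bases with cutadapt 1.13, aligned them to hg38 with STAR 2.6.1d, filtered the alignments to properly paired reads (SAMtools 1.3.1), dropped duplicates (Picard) and took out problem regions (bedtools 2.29.2). They called summits with MACS2 at a q of 0.01; the submitters' processing notes name version 2.2.6, and the methods another. How reads that match several places were handled is not given in the sources used here. In the deposited lists, pileup is the fragment coverage at a summit, fold enrichment is the ratio of that pileup to local background in the input, and −log10 q is the adjusted significance given by the authors' caller. No scaling between libraries is stated for the values of these lists; the normalized coverage tracks that the methods describe were not used here.

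Every entry used was 500 bp long, and starts were read as counted from 0, which the files do not state. Across the lists 44 entries outside chromosomes 1 to 22 and X were left out. Genes were taken from GENCODE 44, while the methods name release 31. A region belonged to a gene by its midpoint, inside the span or within 2 kb of the start. Because fold enrichment depends on depth, each highest summit was given as its percentile in its own list. Regions overlapping by at least 1 bp across the 6 DRIP–seq lists were merged into places. No test was made, since no condition had a replicate. Named genes were all APOBEC3 genes, protein-coding neighbours within 250 kb, related deaminase genes elsewhere in the genome, uracil repair genes, genes of the protein kinase C and NF-κB route, cell type markers, and the 3 genes nearest in percentiles to each APOBEC3 gene with regions in at least 4 DRIP–seq lists. The members and gene lists were chosen with earlier results of these data known. Counting was tested on simulated lists. Python 3.11.15, pandas 2.3.3, numpy 2.4.6, pysam 0.24.0 and matplotlib 3.10.9 were used, and sequences were read from the hg38 reference. Alternatives were other ways to assign regions, a −log10 q of at least 5, lists of equal length, other orders of summits, a larger overlap and another deleted interval. Some items covered by these rules are not reported here.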

Additional observations from a re-analysis of the deposited data

Results flagged for a closer look

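By percentile within their lists, the highest summits of APOBEC3C and APOBEC3D moved in opposite directions in WT and A3B KO cells after PMA, by more than 1 percentile point each way. With 1 library per condition these differences were not tested, and the lists behind the percentiles held 91894 to 169126 regions. At 2 h APOBEC3D changed by -31.4 percentile points in WT and by 34.0 in A3B KO, and at 6 h by -8.84 and 9.12. By pileup the APOBEC3D changes were -23.2 and 32.6 at 2 h and -12.3 and 28.8 at 6 h, and by −log10 q they were -30.1 and 34.5, and -11.8 and 22.4. These are percentiles too. By fold enrichment itself APOBEC3D went opposite ways at 2 h alone, from 6.79 to 5.04 in WT and from 4.82 to 10.5 in A3B KO, while at 6 h it was above DMSO in both lines, at 7.56 and 6.05. APOBEC3C changed by 64.8 in WT and -2.94 in A3B KO at 2 h, and by -11.3 and 12.0 at 6 h. For APOBEC3C the opposite direction was lost by pileup at both times (42.3 and 7.42 at 2 h, 4.48 and 19.5 at 6 h) and by −log10 q at 2 h (60.6 and 1.46), and was kept by −log10 q at 6 h (-7.93 and 16.3). By fold enrichment APOBEC3C went from 4.80 to 5.45 in A3B KO at 2 h, where its percentile fell by 2.94, and so was above DMSO in both lines. Opposite moves were common among all genes compared, with 4109 of 11722 (35.1%) at 2 h and 3761 of 12367 (30.4%) at 6 h.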

How the results depend on the processing

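With lists of equal length, APOBEC3 regions went from 17 to 7 in WT PMA 6 h and from 16 to 8 in A3B KO PMA 6 h, so that WT held 10, 12 and 7 with DMSO, PMA 2 h and PMA 6 h in place of 10, 14 and 17. With a −log10 q of at least 5, they went from 16 to 10 in A3B KO DMSO, and ChIP–seq regions at APOBEC3B, which are also those in the deleted interval, went from 3, 5 and 6 to 1, 2 and 3. Median percentiles of the highest summit moved with the order used. By pileup they were 53.4, 74.4 and 68.6 in WT and 61.8, 69.2 and 88.2 in A3B KO. By −log10 q they were 45.1, 65.6 and 57.2 in WT and 61.6, 65.6 and 81.4 in A3B KO. Within 2 kb of the start alone they were 17.9, 63.3 and 14.1 in WT and 36.9, 51.5 and 35.6 in A3B KO. PMA 6 h thus fell below DMSO in both lines. These medians rest on few members, and not on the same ones. In WT they were APOBEC3C and APOBEC3D with DMSO, and APOBEC3F besides after PMA. In A3B KO they were APOBEC3C, APOBEC3D and APOBEC3F, and APOBEC3H besides with PMA 2 h. The cause of the fall was not tested. Counted by an overlap of at least 1 bp, 6 members rather than 4 had a region in WT DMSO, with APOBEC3B and APOBEC3G added, so that neither then gained a region after PMA. The other totals and the 14 overlaps between DRIP–seq lists stayed within 1.5 times. At APOBEC3B, overlaps of ChIP–seq with WT PMA regions were fewer at 250 bp, except for Dox+ DMSO with PMA 6 h. No paired analysis was possible because each condition was 1 library and no test was made. For the same reason no library could be left out. Depth limits what a missing region can say.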
